A study of Mus musculus with 96 samples.

Results

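Of 42403 GATA6 binding regions of the mouse genome, 2123 gained OCT4 by day 2 of GATA6 induction, 5.01% of the regions. A region was a member when OCT4 reached at least 2.5 RPM (reads mapped per region, scaled to library size) at day 2 and at least 2.5 times its value before induction. OCT4 before doxycycline (Dox) and at day 2 are the values that chose the members. The regions were selected on them, so both are given here as a description only. Members at the edge of the rule had neighbours with nearly the same signal. The 3 members closest to the minimum had 2.503, 2.503 and 2.504 RPM at day 2, and the 3 regions just below it had 2.499, 2.499 and 2.498 RPM. The 3 members closest to the ratio had 2.5007, 2.5009 and 2.5009, and the 3 regions just short of it had 2.4992, 2.4971 and 2.4967.

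The libraries were chromatin immunoprecipitations followed by sequencing (ChIP-seq) and their inputs, in KH2 mouse ES cells of a C57BL/6 x 129/Sv background. All KH2 cells, controls included, carried a GATA6 cassette that responds to Dox, and per the study's methods they came from a small number of transgenic clones. Cells were profiled before Dox and 8 h, 16 h, 1 day, 2 days and 4 days after 1 µg/mL Dox, and XEN cells, an extraembryonic endoderm line of the CD1 strain without the cassette, served as a reference. In a separate experiment, made per the study's methods in 1 of those clones, GATA6 and SOX17 were profiled at day 2 in Dox-treated cells given a control siRNA or an siRNA against Oct4. The cells grew on mouse embryonic feeders, which were removed by adsorption before fixation. Each condition was deposited as 1 pooled value per region from 2 or 3 libraries (1 library for GATA6 before Dox and for OCT4 in XEN cells). SOX17 at 16 h and ESRRB at 8 h have 2 labelled libraries, but their values have a single step, as a column of 1 library would. There was therefore no spread between cultures, no test was possible, and every difference below compares pooled libraries. Intervals in parentheses are 95% intervals over regions or counts and do not cover variation between cultures. Expression of marker genes and the Oct4 level after the siRNA were not analysed here.

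OCT4 is a POU-domain factor that maintains pluripotency together with SOX2, and ESRRB is an orphan nuclear receptor of the same network. These factors are called PTFs, for pluripotency transcription factors. GATA6 drives the primitive endoderm (PrE), the yolk sac lineage of the blastocyst, and SOX17 is an HMG-box factor that acts in the same lineage. OCT4 and SOX2 bind side by side on a composite element, a SOX half-site followed by a POU half-site, and a compressed arrangement of those half-sites is known for OCT4 with SOX17.

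The DNA under the members differed from that of other OCT4-bound regions in how these half-sites were spaced. The letters TTGT (SOX half-site) followed on the same strand by ATGNAA (POU half-site) were searched on both strands in the 301 bases centred on each GATA6 summit, with 0 to 9 bases between them. This search was chosen after values of the regions had been seen, and a match describes the letters and is not a binding site. With no base between the half-sites, 40 of 2123 members had a match (1.88%, 1.39 to 2.56), against 175 of all 42403 regions (0.413%). With 1 base between them the order was inverted, with 4 members (0.188%, 0.0733 to 0.483) against 355 of all regions (0.837%). Regions that had OCT4 at day 2 without the gain (at least 2.5 RPM but a ratio below 2.5, n = 6170, called retained OCT4 regions here) showed the opposite, with 25 matches (0.405%) without a base and 102 (1.65%) with 1 base. The name is approximate, as 69.5% of them had at least 2.5 RPM of OCT4 before Dox. The rest rose past that level by less than the ratio. From the side of the sequence, 22.9% (17.3 to 29.6) of the 175 regions with the gapless arrangement were members, and 1.13% (0.439 to 2.86) of the 355 regions with the 1-base arrangement were. At spacings of 2 to 9 bases the members' shares lay between 0.330% and 0.707%.

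Relative to all regions the difference was largest close to the summit, and the width of the searched sequence set its size. Within 50 bases to each side of the summit, 28 members (1.32%, 0.914 to 1.90) had the gapless arrangement against 0.184% of all regions, and 0 of 2123 members had the 1-base arrangement (upper limit 0.181%) against 0.474% of all regions. Over whole regions, which were wider at members, the gapless arrangement was found in 3.01% of members, 1.60% of retained OCT4 regions and 0.825% of all regions. The 1-base arrangement was then found in 1.13%, 3.0% and 1.36%, so that members and all regions were close for it. With the letters ATTGT and ATGC in place of those above, 58 members (2.73%) had the gapless arrangement against 0.363% of all regions.

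**Figure D1:**
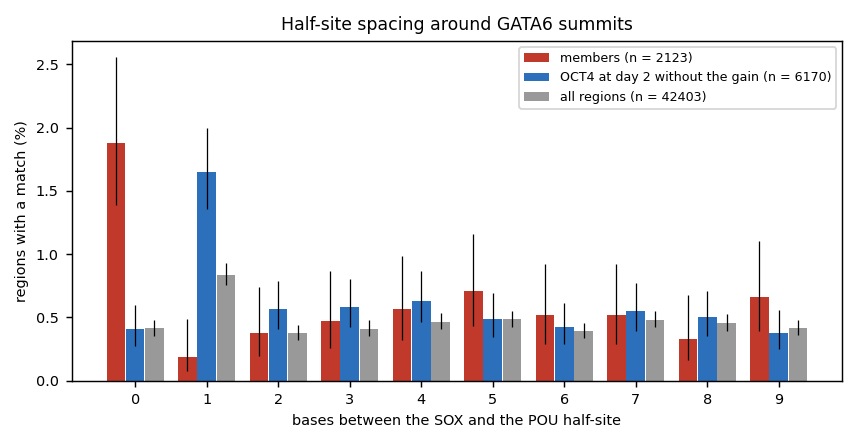
Share of regions (%) whose 301-base window holds a SOX and a POU half-site at each spacing from 0 to 9 bases, for members, retained OCT4 regions and all regions, with 95% Wilson intervals as lines. Members stand at 1.88% with no base between the half-sites and at 0.188% with 1 base, retained regions at 0.405% and 1.65%.

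Of the 10 members with the highest OCT4 at day 2 among the 40 with the gapless arrangement, 8 are shown because they carry this difference. Capitals mark the 10 matched letters, each sequence reads 5′ to 3′ on the strand given, and coordinates are those of the match on mm10 (GRCm38).
C9 intron, chr15:6473411-6473420, plus strand: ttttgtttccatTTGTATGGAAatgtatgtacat
Atf6, intergenic, chr1:170871675-170871684, minus strand: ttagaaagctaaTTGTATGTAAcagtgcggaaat
Foxq1, intergenic, chr13:31474647-31474656, plus strand: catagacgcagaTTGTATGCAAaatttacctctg
Nrf1, intergenic, chr6:30044826-30044835, minus strand: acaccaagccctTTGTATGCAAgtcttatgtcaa
Klf5, intergenic, chr14:99264705-99264714, minus strand: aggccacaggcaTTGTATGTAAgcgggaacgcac
Zfp609 intron, chr9:65791940-65791949, plus strand: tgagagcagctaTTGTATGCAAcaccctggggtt
Bmp2, intergenic, chr2:133724002-133724011, plus strand: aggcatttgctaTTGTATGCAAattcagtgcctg
Arl4a, intergenic, chr12:39776186-39776195, plus strand: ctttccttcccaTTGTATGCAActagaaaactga
Intergenic regions are named by the nearest protein-coding gene start, which says nothing about which gene a region acts on.

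The 4 members with 1 base between the half-sites are shown for contrast, with the matched letters and the base between them in capitals.
Zfp239, chr6:117858475-117858485, plus strand: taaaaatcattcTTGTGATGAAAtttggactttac
Slc52a3, chr2:152029551-152029561, plus strand: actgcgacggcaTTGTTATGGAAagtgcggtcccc
Foxo1, chr3:52322606-52322616, plus strand: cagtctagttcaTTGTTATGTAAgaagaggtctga
Slitrk1, chr14:108195932-108195942, minus strand: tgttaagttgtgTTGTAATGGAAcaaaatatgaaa
Taken singly, the half-sites of the search differed less. TTGT was found in 97.6% of members and 95.4% of all regions, and ATGNAA in 54.1% and 52.3%. The longer SOX half-site ATTGT differed more, with 69.2% of members, 55.4% of all regions, 53.6% of retained OCT4 regions and 74.4% of the 2747 regions with at least 2.5 RPM of SOX17 but less OCT4 at day 2. Median GC content of the window was 44.9% at members and 45.5% over all regions.

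Most members had no match to either arrangement, so the spacing describes a minority of them. In the 40 members with the gapless arrangement SOX17 had a median of 6.55 RPM at day 2 and 4.18 at day 4, against 6.27 and 6.83 RPM in the other 2083. With an siRNA against Oct4, their SOX17 had a median log2 change of -0.04 against 0.42, and their GATA6 -0.30 against -0.11. Their OCT4 change from 8 h to day 1 had a median of 1.89 on the log2 scale, against 1.51 in members without it. GATA6 at day 2 was lower among them, 3.33 against 5.75 RPM, and 21 of the 40 were of the Early&Constant GATA6 class, against 1617 of 2083. Chromatin classed as closed in ES cells held 33 of the 40 and 1692 of the 2083, much the same share, and 10 of the 40 had a high or mid OCT:SOX score. The match lay a median of 31.5 bases from the GATA6 summit. The authors' own OCT:SOX motif scores, from a 15-base motif, did not set the members apart from all regions, as 446 members (21%, 19.3 to 22.8) had a high or mid score against 20.3% of all regions and 40.7% of retained OCT4 regions. A high SOX17 motif score was held by 31.7% of members, 19.6% of all regions, 27.3% of retained OCT4 regions and 31.1% of the regions with SOX17 but not OCT4, so the last were level with the members.

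Precision differed between conditions. The step between low values gave library depths of 5.42 to 69.4 M reads, with a median of 15.3 M, for 40 of the 45 ChIP and input columns, and 5 columns, OCT4 before Dox among them, could not be resolved. Members were wide, with a median of 923 bases (232 to 4145) against 525 over all regions and 1013 in retained OCT4 regions, and RPM per region grows with width, which raises every factor and the input alike. Levels are therefore read against input and changes against the same change over all regions.

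**Figure D2:**
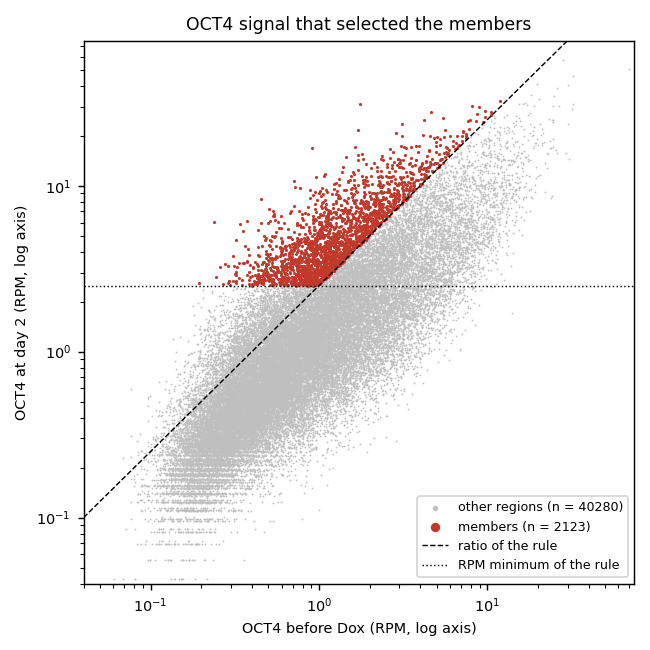
OCT4 at day 2 against OCT4 before Dox, in RPM on log axes, 1 point per region, with the minimum and the ratio of the rule as lines. The 2123 members fill the corner above both lines without a gap to the other regions, which is how the rule chose them.

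OCT4 arrived at the members between 16 h and day 1. Median OCT4 was 1.16 RPM before Dox, 1.04 after 8 h and 1.34 after 16 h. It was 3.45 RPM at day 1, 4.37 on day 2, 4.13 on day 4 and 0.933 in XEN cells. Over all regions the median stayed between 0.681 and 0.963 RPM from before Dox to day 4. Day 2 and the value before Dox are the rule's own. From 8 h to day 1, which the rule did not use, the median log2 change at members was 1.52 (1.48 to 1.56), against 0.24 over all regions and 0.20 in retained OCT4 regions. At least a 2-fold higher value at day 1 was measured for 1746 members (82.2%), where the background over all regions was 14.9%. From 8 h to 16 h the change was smaller, 0.32 (0.29 to 0.34) at members. It was -0.125 over all regions and -0.32 in retained OCT4 regions. In XEN cells OCT4 at members, 0.933 RPM, lay near the XEN input, 0.900 RPM, with 1 library behind the former.

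The gain did not always start from an empty region, so that the name describes a ratio and not the first appearance of OCT4. Before Dox 286 members (13.5%) already reached 2.5 RPM, near the 14.9% of all regions that did, while 1119 first did so at day 1 and 568 at day 2. The rule asked for 2.5 RPM at day 2, so every member had reached it by then. When a factor first reached 2.5 RPM was counted at members only. The authors classed 83.0% of members as ectopic PTF sites and 15.2% as carrying PTFs before Dox, against 16.6% and 20.8% of all regions, classes built from peak calls that include the libraries used by the rule.

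SOX2 was also higher at the members with Dox, and its signal rose more gradually than that of OCT4. Its median was 1.26 RPM before Dox, 1.18 after 8 h, 1.86 after 16 h, 2.47 on day 1, 3.02 on day 2 and 3.75 on day 4, against medians of 0.808 to 0.938 over all regions. The log2 change from before Dox was 0.49 after 16 h, 0.82 on day 1, 1.06 (1.02 to 1.09) on day 2 and 1.30 on day 4. Over all regions these changes were 0.135, 0.029, 0.00 and 0.102, and in retained OCT4 regions the day 2 change was -0.17. Input was higher at 16 h too, with 0.822 RPM against 0.685 before Dox at members. Over all regions it was 0.548 against 0.448 RPM. SOX2 was at least 2-fold higher at day 2 in 1147 members (54.0%), against a background of 6.01% over all regions and 0.810% in retained OCT4 regions. The remaining 976 members started with more SOX2, 1.65 against 1.03 RPM before Dox, and had similar OCT4 at day 2, 4.31 against 4.44 RPM. In 456 members (21.5%) SOX2 reached 2.5 RPM in no condition from before Dox to day 4. The share at or above 2.5 RPM on day 2 was 63.6% of members and 17.3% of all regions.

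Of both SOX factors, SOX17 was higher at more members. Its median at members was 0.876 RPM before Dox, 0.806 after 8 h and 1.15 after 16 h, then 4.30 on day 1, 6.31 on day 2, 6.76 on day 4 and 2.89 in XEN cells. From before Dox to day 2 the log2 change was 2.57 (2.53 to 2.60), against 0.60 over all regions, 0.88 in retained OCT4 regions and 1.94 in the 2747 regions with SOX17 but not OCT4. SOX17 was at least 2-fold higher in 2091 members (98.5%), against a background of 33.1%. With SOX2 taken into account, 1146 members (54.0%) had both SOX factors at least 2-fold higher and 945 (44.5%) SOX17 without SOX2. In 1 member SOX2 was higher without SOX17, and in 31 neither was. Over all regions 5.79% had both and 27.3% SOX17 without SOX2. The share of SOX17 without SOX2 was 43.7% in retained OCT4 regions and 66.9% in regions with SOX17 but not OCT4. Day 1 was when most members, 1450 (68.3%), first reached 2.5 RPM of SOX17, the same day as for OCT4. The share at or above 2.5 RPM of SOX17 on day 1 was 82.1% of members and 17.7% of all regions.

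In the median, GATA6 rose at the members before OCT4 did, and its signal went on growing. Its median was 0.653 RPM before Dox (1 library, against 0.685 RPM of input), 2.0 after 8 h, 3.55 after 16 h, 4.86 on day 1, 5.71 on day 2 and 6.62 on day 4. In XEN cells it was 4.76 RPM. Over all regions the median was 1.49 RPM at 8 h and 1.13 at day 2. At 8 h the log2 change from before Dox was 1.40 at members and 1.38 over all regions, but 2.65 in retained OCT4 regions. From 8 h to day 2 the members gained a median of 1.32 (1.27 to 1.37) while all regions had -0.18 and retained OCT4 regions -0.70. At least a 2-fold gain over that time was measured for 1350 members (63.6%), against a background of 14.7%. At 8 h 848 members (39.9%) first reached 2.5 RPM of GATA6. The share at or above 2.5 RPM at 8 h was 40.6% of members, 32.7% of all regions and 88.5% of retained OCT4 regions. On day 4 that share was 82.7% of members and 28.6% of all regions. In 101 members GATA6 did not reach 2.5 RPM in any condition from before Dox to day 4.

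From before Dox to day 2 ESRRB changed little at the members, while it was lower over all regions. Its median was 0.910 RPM before Dox, 1.23 at 16 h, 1.12 at day 2 and 0.818 at day 4. The log2 change to day 2 was 0.19, against -0.28 over all regions and -0.65 in retained OCT4 regions. A 2-fold higher ESRRB at day 2 was measured for 66 members (3.11%), with a background of 0.370%. Input at members was 0.685 RPM before Dox and 0.855 at day 2, a log2 change of 0.27 against -0.10 over all regions, and 18 members (0.848%) had at least a 2-fold higher input, with a background of 0.0613%. As a log2 ratio to the input of the same time, the OCT4 change from 8 h to day 1 was 1.25 at members and 0.125 over all regions. The SOX2 and SOX17 changes from before Dox to day 2 were 0.81 and 2.31 as ratios to input. Over all regions they were 0.096 and 0.722.

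**Figure D3:**
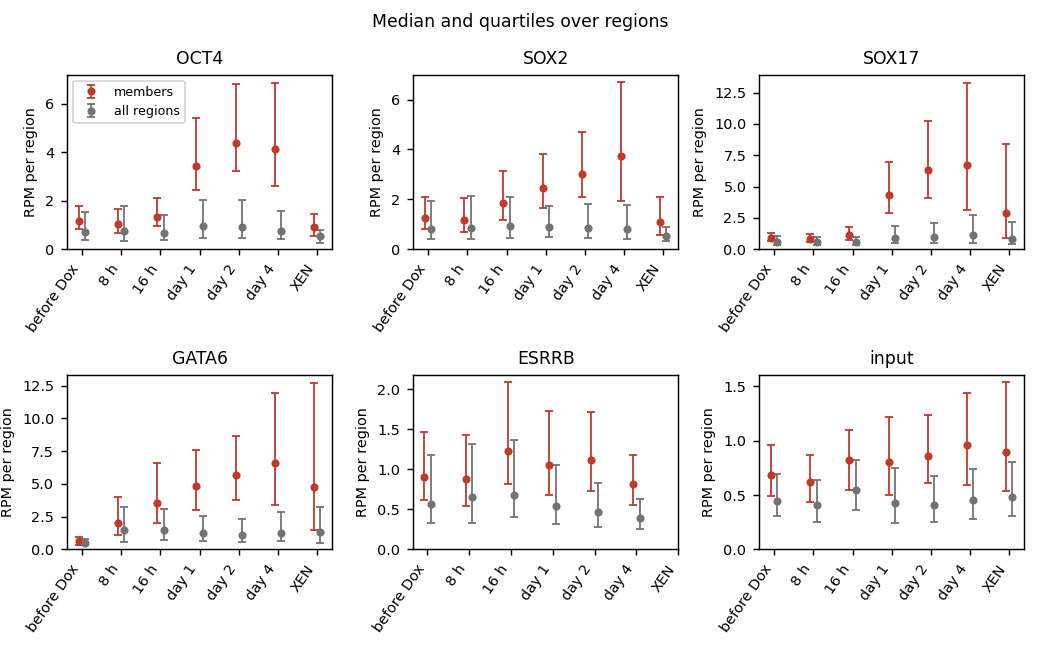
Median RPM per region (points) with quartiles over regions (bars) for each factor and input, before Dox, at 5 times of Dox and in XEN cells, at members and over all regions (ESRRB in XEN cells was not analysed here). OCT4 and SOX17 at members step up at day 1 to 3.45 and 4.30 RPM. GATA6 is higher from 8 h (2.0 RPM), and SOX2 rises more gradually, with 1.86 RPM at 16 h.

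Members were mostly stable GATA6 targets in closed chromatin. The authors' Early&Constant GATA6 class held 1638 members (77.2%) against 28.0% of all regions and 56.0% of retained OCT4 regions, the Late class 315 (14.8% against 33.6%) and the Transient class 170 (8.01% against 38.4%). Chromatin classed as closed in ES cells held 81.3% of members, 61.3% of all regions and 22.8% of retained OCT4 regions. Only 2.17% were accessible, against 7.43% and 23.1%. In the authors' chromatin states 34.7% of members were classed as naive, against 18% of all regions, and 5.09% were active enhancers, against 11.2% of all regions and 32.5% of retained OCT4 regions. Intergenic sequence held 51.1% of members and 46.1% of all regions, introns 42.3% and 44.7%, and promoters (within 1000 bases of a protein-coding start) 4.99% and 7.38%. UTRs held 1.08% and 1.20%, and coding exons 0.518% and 0.691%.

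These classes differed in what followed. Members of the Late class went from 2.22 RPM of OCT4 at day 1 to 4.60 at day 4, a median log2 change of 0.96, and gained more SOX2 to day 2 than the others, 1.40. Transient members went from 2.85 to 1.60 RPM of OCT4, a change of -0.71, and Early&Constant members from 3.86 to 4.34, a change of 0.12. Closed members gained a median of 1.15 of SOX2 to day 2, and the 46 accessible members 0.50.

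After day 1 OCT4 and GATA6 changed in the same direction from region to region. OCT4 was at least 2-fold lower at day 4 than at day 1 in 230 members (10.8%). It was within 2-fold in 1536 (72.4%) and at least 2-fold higher in 357 (16.8%). Over all regions these shares were 21.7%, 69.1% and 9.24%, and in regions with SOX17 but not OCT4 14.2%, 68.9% and 16.9%. At members where OCT4 was lower, its median went from 4.04 to 1.31 RPM and GATA6 from 5.12 to 1.79 RPM. Where OCT4 was higher, it went from 2.48 to 7.21 RPM and GATA6 from 3.15 to 10.6 RPM. Across the 2123 members the changes of OCT4 and GATA6 from day 1 to day 4 had a Spearman rho of 0.86, those of OCT4 and SOX2 0.82, of OCT4 and SOX17 0.80 and of OCT4 and input 0.43. These points share region width, base composition and cultures, and the OCT4 and GATA6 value over all regions was also 0.86. For OCT4 with SOX2, SOX17 and input the values over all regions were 0.850, 0.842 and 0.355. In XEN cells the members that had less OCT4 at day 4 held 0.787 RPM of GATA6, and those with more held 7.44.

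With an siRNA against Oct4, GATA6 at the members was on the whole little lower. Median GATA6 was 10.9 RPM with the control siRNA and 10.1 with the Oct4 siRNA, a median log2 change of -0.12 (-0.15 to -0.10), against -0.00 over all regions, -0.26 in retained OCT4 regions and 0.14 in regions with SOX17 but not OCT4. GATA6 was lower by at least 0.5 on the log2 scale in 511 members (24.1%), near the background of 21.2%. It was higher by as much in 166 (7.82%), against a background of 21.9%. SOX17 had a median of 6.19 RPM with the control and 7.99 with the Oct4 siRNA, a change of 0.41 (0.38 to 0.44), but over all regions the change was 0.52. Relative to all regions the members therefore stood at -0.11, and the direction depends on that scaling. SOX17 was lower by 0.5 in 191 members (9.0%, background 3.95%) and higher in 911 (42.9%, background 51.4%).

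The members whose OCT4 did not last differed most with the siRNA. Among the 230 with OCT4 lower at day 4, GATA6 was 9.45 RPM with the control and 4.96 with the Oct4 siRNA, a median log2 change of -0.80 (-0.87 to -0.74), and 177 (77.0%) were lower by at least 0.5. In the 1536 with OCT4 within 2-fold the change was -0.11 and 297 (19.3%) were lower, and in the 357 with higher OCT4 it was 0.24 and 37 (10.4%) were. The same order was seen over all regions, with -0.52, 0.08 and 0.73. In these groups of all regions, 4749 of 9188 (51.7%), 4115 of 29296 and 117 of 3919 (2.99%) were lower by at least 0.5. Where OCT4 was lower at day 4, that share was 58.5% in retained OCT4 regions and 52.1% in regions with SOX17 but not OCT4. For SOX17 the 3 groups of members had -0.25, 0.44 and 0.69. GATA6 and SOX17 changes with the siRNA had a Spearman rho of 0.81 across members, measured in separate libraries from the same siRNA conditions. By GATA6 class the Transient members had -0.64 for GATA6 and Early&Constant members -0.09. Members with a high SOX17 motif score had -0.00, and those with no SOX17 motif had -0.29.

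**Figure D4:**
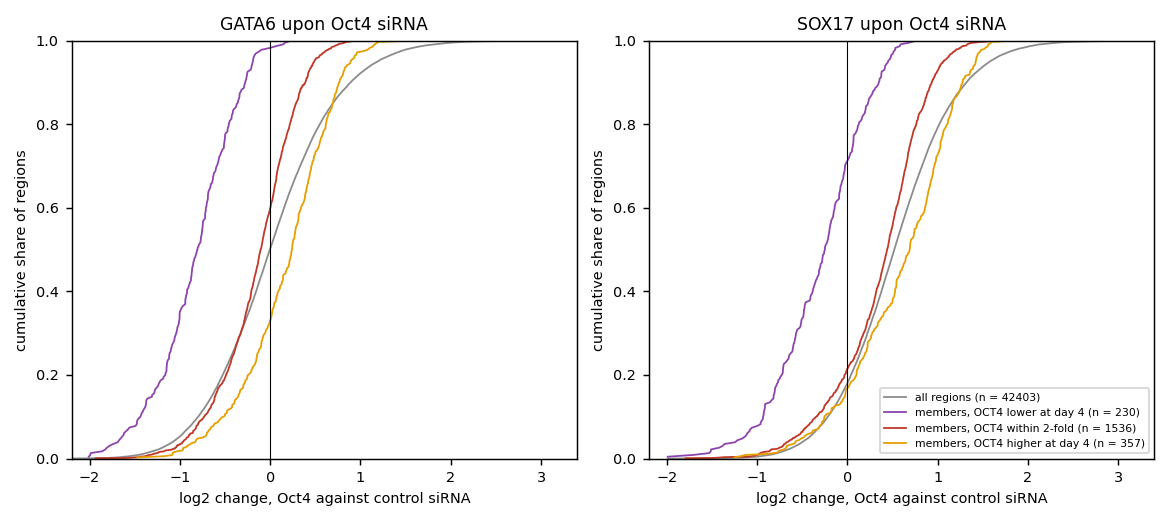
Cumulative share of regions against the log2 change of GATA6 (left) and SOX17 (right) between Oct4 and control siRNA at day 2, for all regions and for members by their OCT4 at day 4 against day 1. The members with lower OCT4 at day 4 lie to the left, with a median of -0.80 for GATA6, and those with higher OCT4 to the right, with 0.24.

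Members lay apart along 20 chromosomes, with a median of 138 kb to the next member, although 345 (16.3%) had another within 10 kb. A protein-coding start was within 100 kb of 1652 members (77.8%), which gave 1312 nearest genes, 1076 of them with 1 member. Foxa2, a forkhead factor of endoderm, had the most, 9 of its 27 regions. Bmp6, a BMP ligand, had 6 of 11, Gata4, a GATA factor of PrE, 6 of 16, and Slc35g1 6 of 12. Of 37 PrE genes in a list of known regulators and products, 20 had at least 1 member, and 56 of the list's 292 regions (19.2%) were members, against 5.01% of all regions. Of 21 pluripotency genes with a region, 9 had a member, and 14 of their 166 regions (8.43%) were members, also above the 5.01%. Both lists were chosen with earlier results of these data known.

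Regulators of the PrE programme held members of several strengths, and for each gene the member with the highest OCT4 at day 2 is described. The Gata4 member, an intronic region 6.29 kb past the start (chr14:63264284-63266085), had OCT4 of 5.06 RPM before Dox, 4.34 after 8 h, 7.54 after 16 h, 16.0 on day 1, 19.7 on day 2 and 21.1 on day 4. SOX17 there went from 3.23 RPM before Dox to 29.6 at day 2. The Sox17 member at -40.3 kb from the gene start (chr1:4536608-4538990) had OCT4 of 2.34, 2.05, 2.80, 9.02, 12.3 and 14.6 RPM over the same times, and SOX17 signal there reached 36.7 RPM at day 4. In XEN cells OCT4 there was 4.80 RPM and the input 2.64 RPM, against member medians of 0.933 and 0.900. The Gata6 member at -42.6 kb was weak, with OCT4 of 1.07 RPM before Dox and 3.16 at day 2. The highest Foxa2 member (chr2:148023772-148024651) went from 1.51 RPM of OCT4 before Dox to 7.11 at day 2.

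Pdgfra, which encodes a receptor tyrosine kinase marking PrE, had the strongest member of the list at -5.62 kb from its start (chr5:75145915-75148017). OCT4 there was 9.63 RPM before Dox, 12.6 after 8 h, 12.5 after 16 h, 23.9 on day 1 and 25.8 on day 2, then 9.72 on day 4 and 1.73 in XEN cells. GATA6 there was already 29.2 RPM at 8 h and 29.4 at 16 h, then 21.5 at day 1, 22.7 at day 2 and 8.32 at day 4. With the Oct4 siRNA GATA6 was 18.3 RPM against 35.2 with the control, a log2 change of -0.94. The best OCT:SOX motif the authors scored there, of the mid class, is in capitals, shown because OCT4 at this member was higher at days 1 and 2 and was back near its starting value at day 4.
Pdgfra, chr5:75146664-75146744, plus strand: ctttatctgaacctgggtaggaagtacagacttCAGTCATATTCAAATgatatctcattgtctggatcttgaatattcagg

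Extracellular matrix and endocytosis genes, the products of PrE cells, showed the more lasting gain. The Col4a2 member (chr8:11308478-11310403), at a collagen IV chain, had OCT4 of 4.93 RPM before Dox, 16.0 at day 2 and 24.8 at day 4, with SOX17 at 53.0 RPM at day 2 and 114 at day 4. The Lama1 member (chr17:67684408-67686583), at a laminin chain, went from 2.12 to 13.6 RPM of OCT4 and 13.8 at day 4. Lrp2 and Cubn encode endocytic receptors that work together, and their members had 3.10 and 20.2 RPM at day 2. Amn encodes the partner of cubilin, and its Transient member went the other way after day 2, from 7.19 to 2.12 RPM of OCT4 at day 4, with a GATA6 log2 change of -0.70 with the Oct4 siRNA. Bmp2 and Srgn members had the largest siRNA changes upward of the list, 1.09 and 0.62.

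Members near pluripotency genes were fewer than near PrE genes and mostly weaker. Their share of the regions there, 8.43%, was still above the 5.01% over all regions. The strongest, 33.0 kb from Klf5 (chr14:99330342-99332644), had OCT4 of 8.60 RPM before Dox and 24.7 at day 2. Near Klf4, a Kruppel-like factor, the member at -31.8 kb (chr4:55563904-55564510) had OCT4 of 1.78, 1.27, 2.86, 6.97, 7.35 and 1.88 RPM from before Dox to day 4, and GATA6 went from 9.56 to 3.75 RPM with the Oct4 siRNA, a log2 change of -1.31. The member 70.7 kb from Sox2 (chr3:34720896-34721344) had OCT4 of 1.54 RPM before Dox, 6.01 at day 2 and 4.45 at day 4, and a GATA6 change of -0.68. The Nanog member 44.3 kb away, inside an intron of Slc2a3, went from 2.56 RPM to 8.12 at day 2 and 10.5 at day 4, with a GATA6 change of 0.05.

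**Figure D5:**
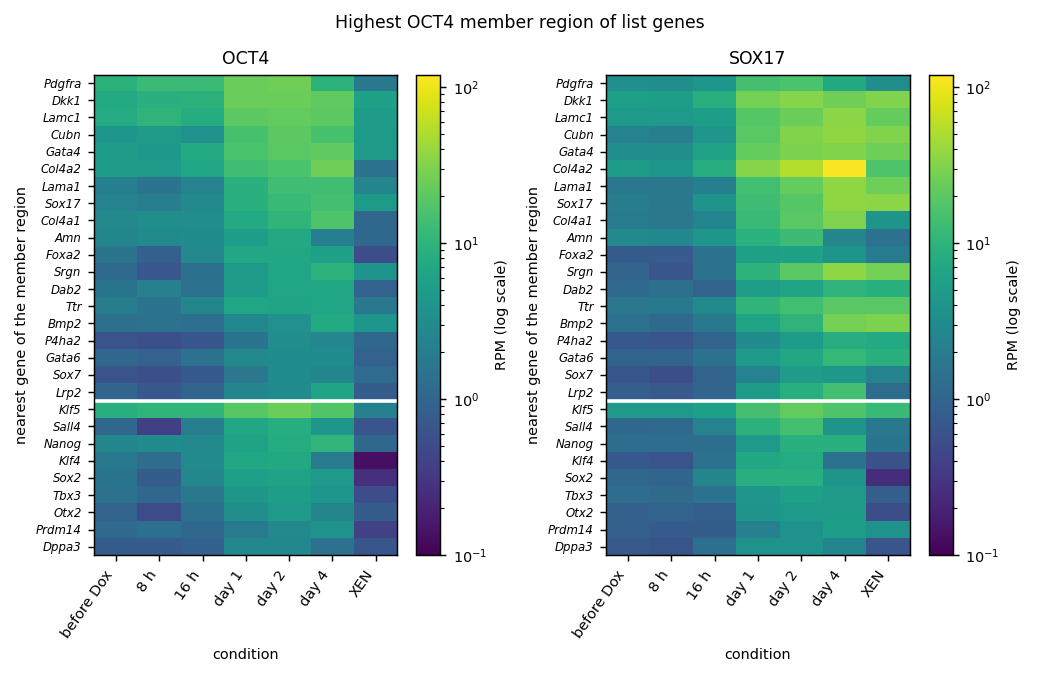
OCT4 (left) and SOX17 (right) in RPM on a log colour scale over the conditions, for the member with the highest OCT4 at day 2 near the PrE genes (above the white line) and pluripotency genes (below) shown. In XEN cells OCT4 is 4.80 RPM at Sox17 and 0.267 RPM at Sox2, and SOX17 reaches 114 RPM at Col4a2 on day 4.

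The 10 members with the highest OCT4 at day 2 lay between 25.8 and 32.5 RPM. By the authors' classes 9 of them carried PTFs before Dox, for example the Fgf10 member (chr13:118602827-118606564), with OCT4 of 12 RPM before Dox, 32.5 at day 2 and 36.8 at day 4, near a fibroblast growth factor gene. The other was an intronic region of Cd247 (chr1:165854041-165855116), which encodes a T-cell receptor chain. OCT4 there was 1.75 RPM before Dox, 0.773 after 8 h, 3.32 after 16 h, 15.1 on day 1, 31.1 on day 2 and 4.45 on day 4, a ratio of 17.7 at day 2. SOX17 reached 41.0 RPM at day 2 and GATA6 7.44 RPM, and with the Oct4 siRNA GATA6 went from 7.30 to 3.33 RPM, a log2 change of -1.09. The C9 intron whose gapless arrangement is printed above (chr15:6472683-6473897), in a complement gene, had OCT4 of 10.5 RPM before Dox, 26.8 on day 2 and 40.5 on day 4, and 0.267 RPM in XEN cells. Bmp2, Wwox and Nrf1 regions with the arrangement were also higher at day 4 than at day 2, at 20.1, 26.7 and 31.3 RPM, while the Zfp609 region was lower, at 3.74 RPM.

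The extremes of the siRNA experiment differed in OCT4 at day 4. Of the 2049 members with at least 2.5 RPM of GATA6 in the control, those with the largest log2 fall of GATA6 with the Oct4 siRNA lay near Trib2 (-2.01), Gcnt1 (-1.99), in an intron of Arhgap44 (-1.99), near Socs1 (-1.93) and near Sfrp1 (-1.83). The Trib2 member (chr12:16130659-16131651) had GATA6 of 6.53 RPM with the control and 1.48 with the Oct4 siRNA, and OCT4 of 4.01 RPM at day 2 and 0.741 at day 4. Near Sfrp1, a secreted inhibitor of Wnt signalling, GATA6 was 11.4 and 3.08 RPM and OCT4 went from 3.20 RPM at day 2 to 0.734 at day 4. Among the highest changes were those near Lcn4 (1.55), at a Stra6 promoter (1.20), near Rai14 (1.16) and in a Creb3l2 intron (1.14). At the Creb3l2 intron (chr6:37396874-37398607) GATA6 was 20.2 and 45.0 RPM, and OCT4 was 3.63 RPM at day 2 and 11.9 at day 4. All 5 members with the largest fall had less OCT4 at day 4 than at day 2, and the 4 named with the highest changes had more.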

How the data were processed

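ChIP and input libraries of the 96 labelled samples were aligned to mm10 by the authors (the submitters' processing notes name bcl2fastq, cutadapt, Bowtie2 and SAMtools, and the study's methods give MACS2 for peaks, bamsignals for counting and FIMO for motif scores). The deposited table holds RPM (reads scaled to library size) per GATA6 region, pooled over the replicates of a condition, and motif scores and region classes. In 4 columns, values came out as whole reads within 0.01 reads for 100% of regions, but with replicates pooled no count test was made. The members and gene lists were chosen with earlier results of these data known.

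Changes are log2((a + c)/(b + c)), with c the 5th percentile of each factor (0.158 to 0.195 RPM), so they understate changes of low regions, and no test was made. Median intervals are order-statistic and share intervals Wilson, at 95%. Sequence came from GRCm38, and places from GENCODE protein-coding transcripts. Named regions were the 10 members with the highest OCT4 at day 2, the highest member of each list gene, the 5 largest changes each way with the siRNA among members with at least 2.5 RPM of control GATA6, and members with printed half-sites. Values per replicate were planned but could not be given. A class of GATA6 response to the Oct4 siRNA is the authors' own test result and was not used, nor were 14 columns of accessibility, histone and DNase signal that belong to no sample here. Python 3.11.15, numpy 2.4.6, pandas 2.3.3, scipy 1.17.1 and matplotlib 3.10.9 were used, and the code was tested on simulated data. Alternatives were other thresholds, pseudocounts, means, scaling and input correction. A few regions that these rules select are not reported here.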

Additional observations from a re-analysis of the deposited data

How the results depend on the processing

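No paired analysis was possible because each condition is 1 column pooled over its replicates, and for the same reason no replicate could be left out. Thresholds of 2 gave 3835 members and thresholds of 3 gave 1247, and subtracting input gave 2212, of which 1580 (74.4% of the members) were shared. The OCT4 change from 8 h to day 1 was 1.27 with thresholds of 2 and 1.76 with 3, 0.87 and 1.65 with a pseudocount 10 times larger and 10 times smaller, 1.59 as a mean, 1.28 after the median of all regions was removed, and 1.25 against input. In the same order where it differed, the SOX2 change to day 2 was 0.83, 1.26, 0.59, 1.16 and, as a mean, 1.1, and 0.81 against input. The SOX17 change to day 2 was 2.23 and 2.83 with the thresholds, 1.53 and 2.79 with the pseudocounts, 1.97 relative to all regions and 2.31 against input. With the Oct4 siRNA the mean GATA6 change was -0.16. The SOX17 change was 0.44 with thresholds of 2, 0.31 with the larger pseudocount and 0.33 as a mean, and it reversed to -0.11 relative to all regions, whose own median was 0.52, which is how that scaling is built. The share with an OCT:SOX motif was 4.24% for high scores, 84.4% for any motif and 22.9% with thresholds of 3. Of 50 alternatives in all, those above included, 16 gave nearly the same value, 33 a different value and 1 the opposite sign. The 10 on half-site spacing were chosen after the data had been seen, and 5 of them gave another value. Regions near the minimum rest on few reads, and OCT4 in XEN cells on 1 library.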
